A study of Mus musculus with 15 samples.

Results

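Genes for subunits of potassium channels and of voltage-gated calcium and sodium channels were examined in RNA-seq of whole mouse pituitary glands. A gene was included when its symbol carried a number after Kcn and its family letters, belonged to Cacna, Cacnb or Cacng, or was that of a numbered sodium channel alpha or beta subunit (Scn with a or b). This gave 132 of the 55523 genes in the count table, and each symbol stood for 1 row. Of these, 68 were above 12 counts in every library, 50 in some libraries, and 14 in none. The limit of 12 counts was taken as 3 fragments, an estimate from a step of about 4 in the low values of the table, which the methods do not describe. Kcnh4 and Kcnk16 were at 0 in all 15 libraries.

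Endocrine cells of the anterior pituitary fire action potentials, and the calcium that enters through voltage-gated channels triggers hormone release. Potassium channels set the resting potential and end each spike, two-pore potassium channels carry the leak current, and large-conductance channels open with both voltage and calcium. Calcium and sodium channels consist of a pore-forming alpha subunit with auxiliary subunits that change its gating and its transport to the membrane.

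The glands came from mice with a deleted pituitary enhancer (PE) in an intron of Nr5a1, which encodes a nuclear receptor of gonadotropes. The question was how the gland's transcriptome differs without it. Controls carried the deletion on one chromosome (PE+/−), so a wild-type level was not measured, and mice with the deletion on both chromosomes (PE−/−) were compared with them. Among males, 4 libraries were PE+/− and 4 were PE−/−, whereas females gave 4 PE+/− libraries and 3 PE−/− ones, each labelled as a separate sample. The deletion was made in the germline, so all tissues carried it, but the paper reports loss of NR5A1 in the pituitary only. It also reports lower testosterone in adult PE−/− testes and fewer corpora lutea in PE−/− ovaries. Effects of the genotype in the gland and effects of gonadal hormones therefore cannot be told apart in these samples. The labels give no age, litter or batch. They do not say that replicates were separate animals, so p-values measure the spread between these samples. Library totals ran from 12982794 to 30238443 estimated counts. Levels are given as CPM, the count divided by the library's size and scaled to a common total. Nr5a1 ran from 34.8 to 80.2 CPM in PE+/− males and from 33.7 to 45.4 in PE+/− females, against at most 0.740 in PE−/− males and 0.897 in PE−/− females. Summed somatotrope, lactotrope and corticotrope markers were at least 59381, 4459 and 4727 CPM in every gland. The lactotrope value is that of prolactin (Prl) alone. Pomc made up most of the corticotrope sum, with group means of 35251 to 58333 CPM, and is not limited to corticotropes or to the anterior lobe. These levels varied too, since within PE−/− males the lactotrope value ran from 4753 to 41223 CPM and the corticotrope sum from 4727 to 115147. The part of this spread in the channel genes was not tested. Posterior lobe markers also varied between glands, as described for Scn7a.

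Levels were first compared per kilobase of annotated exon, because long genes collect more reads. The 2 highest channel genes of the gland were Kcnk1, a weakly inwardly rectifying two-pore channel, with 71.6 CPM per kb over all libraries, and Kcna5, a delayed rectifier of the Shaker family, with 59.6. Next came Kcnip3, a calcium-binding partner of A-type channels, with 32.0 CPM per kb, the calcium channel beta subunit Cacnb3 with 28.9, the large-conductance beta subunit Kcnmb2 with 24.5 and the mechanosensitive two-pore channel Kcnk2 with 19.5. This order is over all libraries. In PE−/− females Kcnip3 had 20.1 CPM per kb, below Cacnb3 with 34.3, Kcnmb2 with 28.8 and Kcnk2 with 23.8, and 1 of the 3 libraries had 3.93 CPM of Kcnip3. These genes spanned several functions, and the pore-forming calcium and sodium subunits lay lower.

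**Figure D1:**
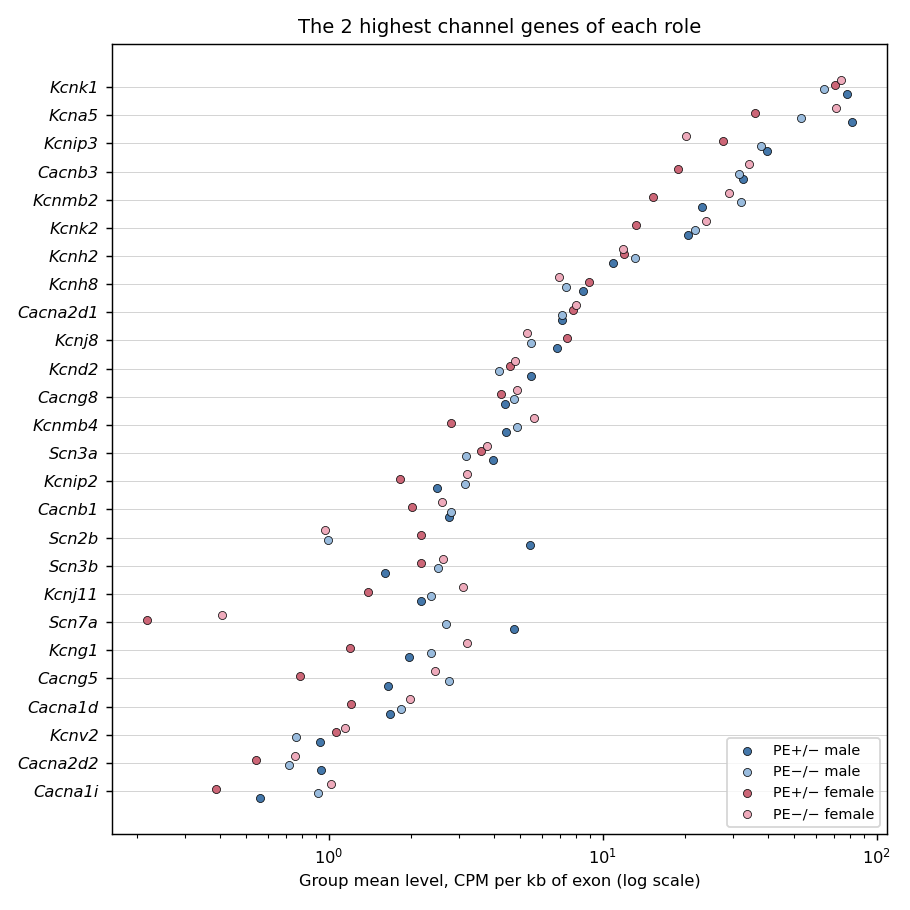
Mean level in each group, in CPM per kilobase of exon on a log axis, of the 2 highest channel genes of each of 13 roles. Points are group means of 4 libraries (3 for PE−/− females). Kcnk1 and Kcna5 lie highest, and for Kcna5, Cacnb3, Kcnmb2 and Kcnk2 the PE+/− female mean is the lowest of the 4 groups.

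Among pore-forming calcium subunits, the L-type gene Cacna1d was highest with 1.65 CPM per kb, followed by the T-type gene Cacna1i with 0.70 and the N-type gene Cacna1b with 0.661. The sodium alpha subunit Scn3a had 3.62 CPM per kb, and Cacna2d1, which carries calcium channels to the membrane, had 7.46. The inward rectifier Kcnj8, a pore of ATP-sensitive channels known from pericytes, had 6.31, and Kcnj11, its counterpart in endocrine cells, had 2.20. The order of the 2 highest genes, which differ in role, was not the same in every group. Kcnk1 and Kcna5 had group means of 78.1 ± 11.3 (SD, n = 4) and 81.2 ± 16.9 CPM per kb in PE+/− males, which is within their spread.

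The share of all counts that fell on the 132 genes was lowest in PE+/− females. It was 0.172% ± 0.00827 (SD, n = 4) in PE+/− males, 0.169% ± 0.0161 (n = 4) in PE−/− males, 0.141% ± 0.0127 (n = 4) in PE+/− females and 0.17% ± 0.0071 (n = 3) in PE−/− females. No test was run on the share itself.

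In females, channel genes were mostly higher in PE−/− than in PE+/− glands. The leak channels Kcnk9 and Kcnk3 and the T-type calcium channel Cacna1i rose, and Kcns2, a silent subunit that alters Kv2 channels, fell. Of 105 channel genes that passed the count filter, 4 passed the threshold of 0.05 for the adjusted p (edgeR's quasi-likelihood test, Benjamini-Hochberg adjustment over all genes), whereas 1.05% of all 18085 genes tested did so. At an unadjusted p under 0.05, 25 channel genes were higher (7.75% of all genes tested) and 10 were lower (8.39% of all). The libraries of the groups did not overlap for 39 channel genes, which is 37.1% of them, against 18.6% of all genes tested. The median log2 fold change of the channel genes was 0.22, against 0.0018 for all genes tested, and 69 of 105 had a positive value under each of 3 scalings.

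Kcnk3 encodes an acid-sensitive leak channel and lies at chr5:30588170-30625271 (mm10, GENCODE M21, plus strand). The 4 PE+/− females had 14.6, 10.6, 6.75 and 8.48 CPM, whereas the 3 PE−/− females had 36.6, 38.3 and 41.2. Every PE−/− female library lay far above the highest PE+/− one. By edgeR, the adjusted p was 0.0297 for a log2 fold change of 1.93 ± 0.267 (SE).

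Kcnk9 encodes the closest relative of Kcnk3 and forms mixed channels with it (chr15:72501089-72546340, minus strand). Its level was 5.86, 9.34, 9.31 and 8.91 CPM in PE+/− females, against 33.9, 25.7 and 32.6 in those with PE−/−, again without overlap. Its log2 fold change was 1.87 ± 0.207 (SE), with an edgeR adjusted p of 0.0194.

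Cacna1i encodes a slowly inactivating T-type channel, which opens near the resting potential (chr15:80287238-80398279, plus strand). The PE+/− libraries had 3.99, 2.81, 4.57 and 3.97 CPM, and the PE−/− ones had 10.8, 11.0 and 8.45. The groups were apart in all libraries, at 1.39 ± 0.225 (SE) on the log2 scale (adjusted p = 0.0435 by edgeR).

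Kcns2 (chr15:34837355-34843407, plus strand) was detected in PE+/− females alone. Its counts were 19, 145, 154 and 111 in their libraries and 0 in each of the other 11. The mean of 5.68 ± 2.96 CPM (SD, n = 4) was at least 10.4-fold higher than in PE−/− females, when a floor of 12 counts per library was taken for the latter (edgeR adjusted p = 0.0420). A count of 0 allows up to about 3 fragments in a library, taken as 12 counts, and limits of this kind cover counting error only. No RefSeq promoter was found for Kcns2, Kcnk3 or Kcnk9.

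**Figure D2:**
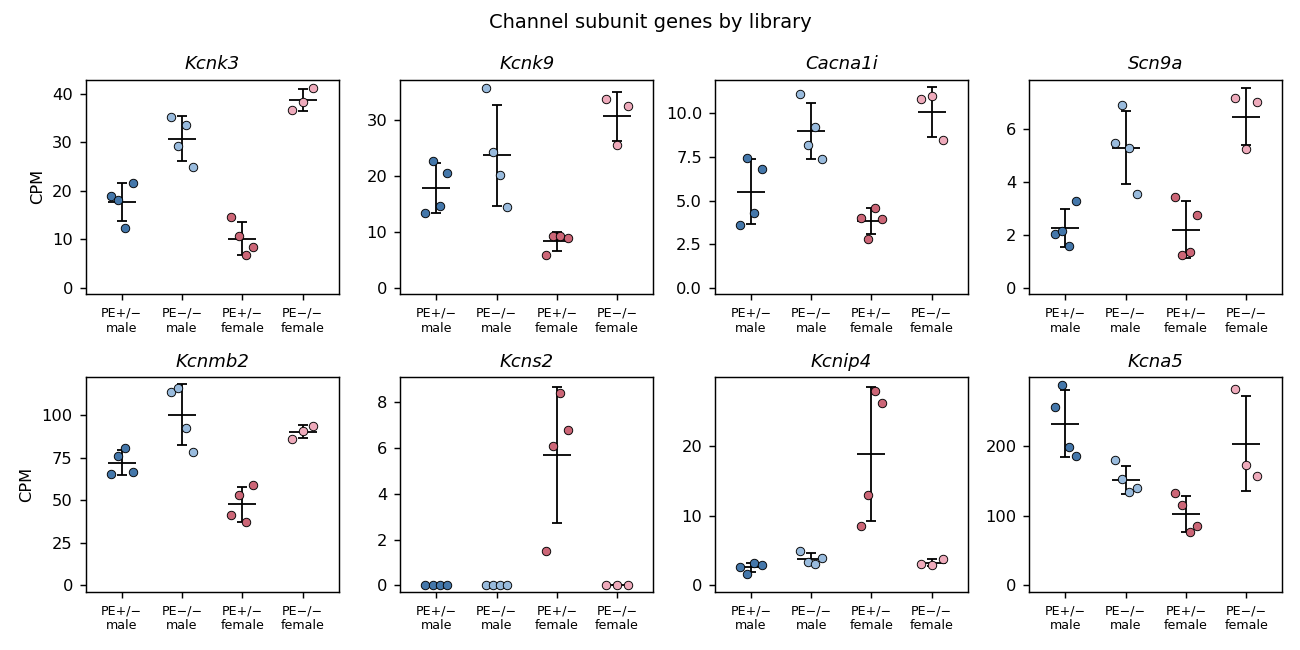
CPM in each library of 8 channel genes, by group; points are libraries, bars are the mean and error bars 1 SD, drawn no lower than 0. Kcnk3, Kcnk9, Cacna1i, Scn9a and Kcnmb2 were higher in PE−/− females than in any PE+/− female, and Kcns2 and Kcnip4 stood out in PE+/− females.

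Calls in females rested on few libraries. Leaving out PE+/− female replicate 2, PE−/− female replicate 1 or PE−/− female replicate 3 left 0 channel genes past the threshold, and Kcnk9 then had adjusted p-values of at most 0.0848. Kcnk3 was also lost without PE+/− female replicate 4 or PE−/− female replicate 2 (at most 0.125 over the 7 fits), Cacna1i without any 1 of the 7 libraries (0.0618 to 0.17), and Kcns2 without any but PE+/− female replicate 1 (at most 0.125). Leaving out 1 library left 27 to 36 channel genes at an unadjusted p under 0.05. The share of all genes in those fits is not given here. With all 7 libraries, 33.3% of channel genes and 16.1% of all genes tested were at that level.

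Several further genes in females did not pass the adjusted threshold although their libraries did not overlap. Among calcium channel genes, the T-type gene Cacna1h had a log2 fold change of 1.17 (adjusted p = 0.0668) and Cacnb3 one of 0.86 (0.120). Among potassium channel genes, Kcnn3, a small-conductance calcium-activated channel, had 1.11 (0.0695), Kcnmb2 0.91 (0.0720) and Kcnk2 0.84 (0.0767). In the other direction, Kcnip4, an auxiliary subunit of A-type channels, had −2.53 (0.0578), the sodium beta subunit Scn2b −1.18 (0.0895) and the sodium alpha subunit Scn11a −2.14 (0.0947). DESeq2 called 24 of the 105 channel genes and 7.21% of all genes, and edgeR's likelihood ratio test called 19 and 3.93% of all.

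The roles hold few genes each and were not compared by a test. At an unadjusted p under 0.05, 7.75% of all genes tested were higher and 8.39% lower in females. Of 8 genes with a Cacng symbol (calcium channel gamma), 6 were tested in females. All 6 had positive values and 2 passed an unadjusted p of 0.05. Cacng7 was not among them and had means of 0.617 CPM in PE+/− and 0.337 in PE−/− females. These genes were grouped by symbol, so their values do not show that calcium channels gained subunits. Of 8 tested calcium alpha subunits, 3 were higher and 2 lower at that level. Of 10 inward rectifiers tested, 8 had positive values and 3 passed at that level, among them Kcnj11 (1.13 ± 0.282, SE; adjusted p = 0.110) and the G protein-gated channel Kcnj9 (1.28 ± 0.334; adjusted p = 0.122). Of the auxiliary potassium subunits, 6 of 9 had negative values and 3 were lower at that level (Kcnip4, Kcnip1 and Kcne2). The value of Kcne2 rests largely on 1 library, since PE+/− females had 0, 1.84, 29.1 and 2.07 CPM and PE−/− females 0.155 to 0.394. These directions were the same with the size factors of DESeq2 and with library totals.

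**Figure D3:**
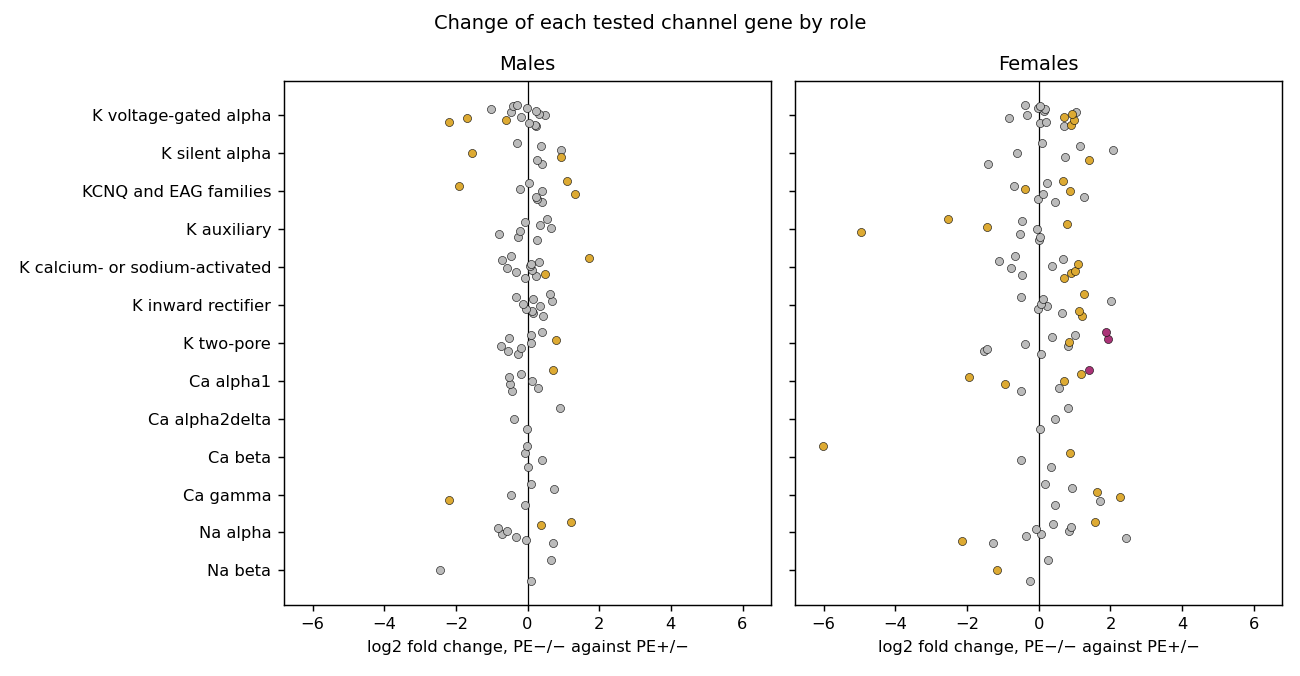
The log2 fold change of PE−/− against PE+/− for each tested channel gene, by role, in males on the left and females on the right. Purple points pass an adjusted p of 0.05, yellow ones an unadjusted p of 0.05 and grey ones neither, and Kcns2 and Cacna1e are left out because a group was at 0 or nearly so. Kcnk3, Kcnk9 and Cacna1i are the purple points in females, and males have none.

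Markers of other cell types were read beside these genes in females. Prolactin, the lactotrope hormone, fell past the adjusted threshold and ran from 21965 to 35113 CPM in PE+/− and from 4459 to 5603 in PE−/− females. The summed level of 5 gonadotrope markers ran from 5860 to 8742 and from 2265 to 6947 CPM, and 5 of 5 were lower, 3 past the adjusted threshold. Cga made up most of this sum, with means of 6412 CPM in PE+/− and 4971 in PE−/− females, and did not pass. Lhb had means of 205 and 16.2 CPM, Gnrhr 95.8 and 6.87 and Nr5a1 38.7 and 0.724. The sum of 5 stem or folliculostellate markers ran from 62.3 to 90.0 and from 109 to 147 CPM, with 5 of 5 at positive values and 0 past the adjusted threshold by edgeR (2 at an unadjusted p under 0.05). The 2 somatotrope markers overlapped between genotypes, with sums of 59381 to 104861 and 86361 to 174579 CPM. The 5 pericyte or smooth muscle markers summed to 414 to 918 and 281 to 350 CPM, with Myh11 at the floor in every group. Rgs5 made up most of this sum, with means of 679 CPM in PE+/− and 295 in PE−/− females, and Pdgfrb had 22.5 and 21.1. Of the 4 markers of this type tested in females, 3 had negative values and 1 a positive one, and none passed the adjusted threshold. With both sexes fitted and adjusted for sex, all 4 had negative values and 1 passed, Rgs5 (−0.98 on the log2 scale, edgeR adjusted p = 0.0249). Their part in the channel genes' differences was not tested. In whole glands, fewer cells of a type and less RNA per cell cannot be told apart.

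In males, no channel gene passed the adjusted threshold between PE−/− and PE+/−. Kcna4, a fast-inactivating channel of the Shaker family, had the smallest p. Of 101 channel genes tested, 0 passed by edgeR's quasi-likelihood test, where 0.132% of all 17392 genes did so. At an unadjusted p under 0.05, 10 were higher (3.34% of all genes tested) and 6 lower (2.79% of all). DESeq2 called 5 (Cacna1e, Kcna4, Kcng4, Kcnq1 and Scn9a), with 1.31% of all genes, and the likelihood ratio test 4, with 0.793% of all. Libraries did not overlap for 11 channel genes, 10.9% of them, against 4.56% of all genes. The median log2 fold change was 0.06, against 0.0027 for all genes tested.

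Kcna4 (chr2:107290639-107298502, plus strand) was at 31.6, 27.9, 29.2 and 23.1 CPM in PE+/− males, against 8.90, 6.62, 7.45 and 1.48 where PE was lost from both chromosomes. PE+/− males were apart from all other libraries, since PE+/− females had 2.66, 3.6, 1.36 and 14.6 CPM and PE−/− females 3.89, 7.39 and 7.79. In males the value was −2.19 ± 0.456 (SE, log2 scale; edgeR adjusted p = 0.232), and without PE−/− male replicate 4, the lowest library, the adjusted p was 0.0123. The females, in contrast, had a value of 0.20.

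Kcng4, a silent subunit, had 6.13, 2.74, 4.94 and 2.97 CPM in PE+/− males, against 0.854 to 1.72 in the other genotype, with no overlap and −1.54 ± 0.359 (SE) on the log2 scale (edgeR adjusted p = 0.314). Cacna1e, the R-type calcium channel, had 0, 0, 4 and 0 counts in PE+/− males and 0.843 to 2.05 CPM in PE−/− males (adjusted p = 0.310). Both were low genes, and neither passed.

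With both sexes in 1 model and sex as a term, 4 channel genes rose in PE−/− glands and 1 fell. Those that rose were the leak channel Kcnk3, the T-type channel Cacna1i, the sodium channel Scn9a, known from sensory neurons, and Kcnmb2, a beta subunit that makes large-conductance potassium channels inactivate. Kcns2 fell. This made 5 of 110 channel genes tested, against 1.17% of all 19286 genes tested. DESeq2 called 13, Kcns2 not among them, with 3.85% of all genes, and the likelihood ratio test 10, with 2.17% of all. At an unadjusted p under 0.05, 25 were higher (6.60% of all) and 10 lower (6.07% of all).

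Scn9a (chr2:66480080-66634962, minus strand) was low in every gland but separate between genotypes in each sex. In males it had 2.04, 2.13, 1.59 and 3.30 CPM with PE+/− but 5.46, 6.89, 5.29 and 3.53 with PE−/−. Females had 3.44, 1.26, 1.36 and 2.75 CPM with PE+/− but 7.17, 5.23 and 7.01 with PE−/−. Adjusted for sex, the change was 1.38 ± 0.246 (SE, log2 scale; edgeR adjusted p = 0.0154), with 1.22 in males and 1.56 in females.

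Kcnmb2 (chr3:31902507-32200180, plus strand) was the most abundant of the genes that rose. Males had 65.4, 75.7, 80.4 and 66.6 CPM in PE+/− and 114, 116, 92.5 and 78.6 in PE−/−, which overlap in 1 PE−/− library. Females had 41.2, 53.0, 37.4 and 59.3 CPM in PE+/− and 86.2, 91.0 and 93.5 in PE−/−, without overlap. The change adjusted for sex was 0.68 ± 0.131 (SE, log2 scale; edgeR adjusted p = 0.0208).

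Kcnk3 rose by 1.33 ± 0.222 (SE) on the log2 scale adjusted for sex (edgeR adjusted p = 0.0110). The PE+/− males had 19.0, 18.0, 12.3 and 21.7 CPM, the PE−/− males 35.2, 29.2, 33.6 and 24.9, so that the groups were separate in males as well (0.79, adjusted p = 0.363). Cacna1i had 3.59, 7.42, 4.27 and 6.79 CPM in PE+/− males, and with PE−/− it had 11.1, 8.19, 9.23 and 7.40, where 1 pair of libraries overlapped. Its value adjusted for sex was 1.02 ± 0.195 (SE; edgeR adjusted p = 0.0208). The fall of Kcns2 (adjusted p = 0.0348) rests on females, because all males were at 0. In the males, the 5 gonadotrope markers summed to 8979 to 16873 CPM in PE+/− and 1361 to 6818 in PE−/−, and their part in these results was not tested.

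Kcnk3 kept its call without each of the 15 libraries in turn, with adjusted p-values up to 0.0347. Scn9a lost it without PE−/− female replicate 3 (0.0531). Cacna1i and Kcnmb2 lost it without PE−/− female replicate 2, PE−/− female replicate 3 or PE−/− male replicate 1, with adjusted p-values up to 0.0615 and 0.0683. Kcns2 lost it without PE+/− female replicate 2, 3 or 4 or any PE−/− female, with values up to 0.0973.

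Promoters of 3 genes that rose when both sexes were fitted together are shown so that their letters can be compared. RefSeq (GRCm38.p6) held windows for 97 of the 132 genes, 133 windows in all. The stretches below are the 250 bases before the RefSeq start of Cacna1i, Scn9a and Kcnmb2. For Kcnmb2 this start lies downstream of the GENCODE start given above, so most of the stretch is within that interval. Capitals mark the half-site of the cyclic AMP response element, TGACG, on either strand.
Cacna1i (chr15:80286988-80287237, plus strand): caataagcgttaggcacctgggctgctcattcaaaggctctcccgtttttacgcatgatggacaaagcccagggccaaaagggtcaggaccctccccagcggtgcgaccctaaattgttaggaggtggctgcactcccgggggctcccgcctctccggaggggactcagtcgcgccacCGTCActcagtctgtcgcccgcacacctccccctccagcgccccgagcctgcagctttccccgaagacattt
Scn9a (chr2:66634963-66635212, minus strand): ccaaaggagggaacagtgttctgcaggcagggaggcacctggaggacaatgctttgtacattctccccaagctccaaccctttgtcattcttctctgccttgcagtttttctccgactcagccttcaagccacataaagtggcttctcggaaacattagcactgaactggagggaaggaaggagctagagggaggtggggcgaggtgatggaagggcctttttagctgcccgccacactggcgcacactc
Kcnmb2 (chr3:31902453-31902702, plus strand): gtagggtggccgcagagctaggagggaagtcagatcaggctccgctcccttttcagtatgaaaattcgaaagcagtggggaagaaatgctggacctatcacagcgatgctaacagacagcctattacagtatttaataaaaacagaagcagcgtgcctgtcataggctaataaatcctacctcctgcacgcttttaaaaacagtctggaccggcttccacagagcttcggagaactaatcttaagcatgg
The windows, which reach 50 bases past the start, were searched on both strands for 3 motifs. AAGGTCA, a form of the core that NR5A1 binds, was in none of the 3 promoters. It was in 6 channel windows (Cacna1f, Cacng8, Kcnf1, Kcnh1, Kcnj16 and Scn8a), 4.51% of them, and in 4.72% of all 32851 windows. Other forms of the core were not searched for. The half-site TGACG was in the Cacna1i promoter, on the opposite strand, in 17.3% of channel windows and in 20.8% of all windows. The palindromic oestrogen response element (GGTCA, any 3 bases, TGACC) was in 0 channel windows and in 0.0700% of all. These are matches of letters, and no binding was measured. Guanine and cytosine made up 62.4% of the Cacna1i stretch, 54.4% of that of Scn9a and 47.2% of that of Kcnmb2.

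The comparisons within males and within females share no library, so the directions of the channel genes in them can be set side by side. Of 99 channel genes tested in both, 44 were higher and 23 lower in PE−/− in both sexes, which is 67.7% with the same sign. Among all 17074 genes tested in both, this share was 54.9%. Across these channel genes the log2 fold changes in males and females had a Pearson correlation of 0.21 and a Spearman correlation of 0.36, against 0.26 and 0.15 over all genes, so the Pearson value was lower than that of all genes. Genes are not independent replicates, so this is a description.

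**Figure D4:**
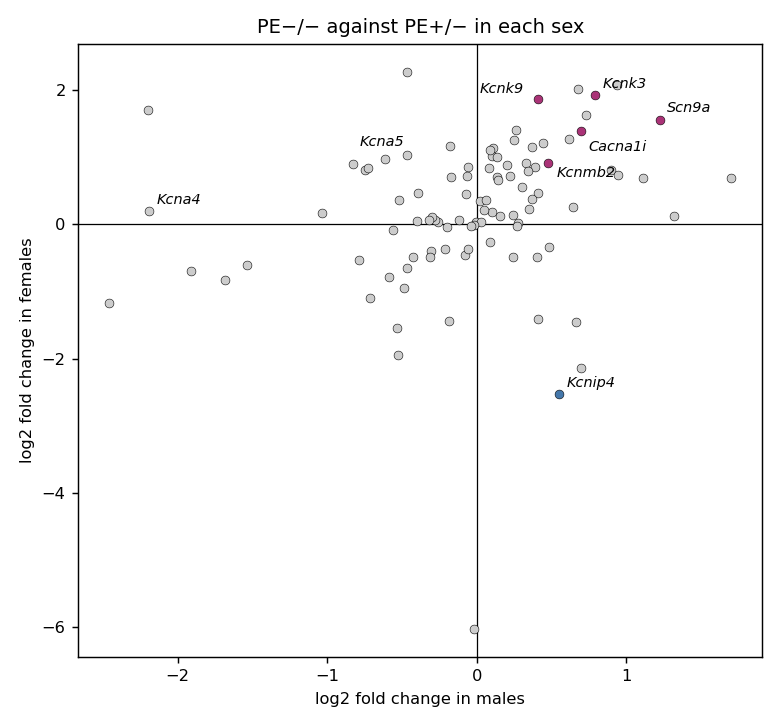
The log2 fold change of PE−/− against PE+/− in males (x) and females (y) for channel genes tested in both sexes, without Cacna1e, which was at 0 in 3 of 4 PE+/− males. Purple genes pass the adjusted threshold in females or adjusted for sex, and Kcnip4 in blue passes for the interaction; the purple genes lie in the upper right area.

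Sex differences in PE+/− glands were next examined, with the reservation that the PE+/− female libraries are also the controls of the female comparison above. Kcnip4 and Kcns2 were higher in females than in males, and no channel gene was lower past the adjusted threshold. Of 99 channel genes tested, these 2 passed, against 0.670% of all 17163 genes. DESeq2 called 13, with 4.96% of all genes, and the likelihood ratio test 11, with 2.46% of all. At an unadjusted p under 0.05, 12 were higher in females (7.29% of all genes tested) and 23 lower (6.18% of all). Libraries did not overlap for 25, 25.3% of the channel genes, against 9.75% of all genes. The median log2 fold change of the channel genes was −0.25, against −0.01 for all genes.

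Kcnip4 (chr5:48389502-49524907, minus strand) had 8.52, 12.9, 27.9 and 26.1 CPM in PE+/− females, against 2.61, 1.62, 3.17 and 2.97 in the males. In PE−/− glands it had 4.91, 3.33, 3.05 and 3.93 CPM in males and 3.03, 2.94 and 3.85 in females. PE+/− females were thus above all other 11 libraries, and the other groups overlapped or lay close together. Females exceeded males by 2.86 ± 0.424 (SE) on the log2 scale in PE+/− (edgeR adjusted p = 0.0326). The interaction of genotype and sex was −3.08 ± 0.521 (SE; edgeR adjusted p = 0.0347). An antisense gene, 5730480H06Rik, overlaps Kcnip4. It had group means of 8.99 to 11.6 CPM and did not pass the threshold for the genotype in either sex, for sex in PE+/− or for the genotype adjusted for sex.

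Kcns2 was at least 7.81-fold higher in PE+/− females than in PE+/− males (edgeR adjusted p = 0.0397). Both calls lost the threshold without any of 7 of the 8 libraries, PE+/− female replicate 1 being the exception, with adjusted p-values up to 0.111 for Kcnip4 and 0.130 for Kcns2. Without 1 library, 27 to 35 channel genes had an unadjusted p under 0.05. The share of all genes in those fits is not given here. With all 8 libraries, 35.4% of channel genes and 13.5% of all genes tested were at that level.

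Kcna5 (chr6:126532551-126535412, minus strand) was an abundant gene whose genotype values had opposite signs in the sexes. Males had 257, 288, 199 and 186 CPM with PE+/− but 180, 153, 135 and 140 with PE−/−. Females had 133, 115, 77.4 and 85.7 CPM with PE+/− but 282, 172 and 157 with PE−/−. PE+/− males lay above PE−/− males and above PE+/− females, and PE−/− females above PE+/− females. On the log2 scale, the value was −1.17 ± 0.229 (SE) for females against males in PE+/− (edgeR adjusted p = 0.0742), −0.61 for the genotype in males and 0.98 for the genotype in females. The interaction was 1.6 ± 0.330 (SE; edgeR adjusted p = 0.0836), so none of these passed, although without PE+/− female replicate 1 the interaction had an adjusted p of 0.0451.

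In PE−/− glands, no channel gene was shown to differ between the sexes, and the counts lay near those of all genes. Of 107 tested, 0 passed the adjusted threshold (0.0494% of all 18217 genes passed), 2 were higher (1.63% of all) and 2 lower (1.74% of all) at an unadjusted p under 0.05. DESeq2 and the likelihood ratio test also called 0 channel genes, with 0.242% and 0.181% of all genes called. Libraries did not overlap for 8 channel genes, 7.48%, against 5.24% of all genes. The genes with the smallest p were the T-type calcium channel Cacna1g (1.18, SE 0.373), the intermediate-conductance channel Kcnn4 (−1.54, SE 0.508) and Kcnq1 (1.21, SE 0.432), each with an edgeR adjusted p of 0.997. Kcnq1 overlaps the antisense transcript Kcnq1ot1, which had group means of 32.1 to 75.4 CPM, against 0.940 to 3.52 for Kcnq1, and reads of the pair cannot be told apart without strand. Channel genes other than Cacng6, which was called without PE−/− male replicate 3, passed in no fit that left out 1 library.

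The interaction of genotype and sex was tested across all 15 libraries, and Kcnip4 was the 1 channel gene of 110 that passed (0.161% of all 19286 genes did). DESeq2 called 5, with 1.92% of all genes, and the likelihood ratio test 3, with 1.05% of all. Its call was lost without any of 13 of the 15 libraries, the exceptions being PE+/− female replicates 1 and 2, with adjusted p-values up to 0.0995. At an unadjusted p under 0.05, 14 channel genes had a more positive genotype difference in females (4.71% of all genes) and 3 a more negative one (5.40% of all). After Kcnip4 and Kcna5, Kcnk9 had the smallest p, with 1.47 ± 0.387 (SE; edgeR adjusted p = 0.175). Its male libraries overlapped, with 13.4, 22.8, 14.7 and 20.6 CPM in PE+/−, against 35.8, 24.4, 20.1 and 14.6 in PE−/− (0.41).

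A list of 44 other genes of excitability, which holds cation channels, pumps, exchangers and channel partners, was read in the same fits. In females 40 were tested, 1 was higher and 1 lower past the adjusted threshold, and 13 were higher and 1 lower at an unadjusted p under 0.05, against 1.05% of all genes past the adjusted threshold and 7.75% higher and 8.39% lower at the unadjusted one. Trpc5, a cation channel opened by receptors, rose in PE−/− females with a log2 fold change of 2.20 (edgeR adjusted p = 0.0297), from 2.85 to 5.86 CPM in PE+/− up to 14.4 to 18.7 CPM. Slc8a3, a sodium-calcium exchanger, fell by 2.33 on the log2 scale (edgeR adjusted p = 0.0238), from 5.94 to 10.1 CPM in PE+/− down to 1.23 to 1.91 CPM. Adjusted for sex, Trpc5 (1.59, adjusted p = 0.0139) and Stac, which binds L-type channels (1.61, adjusted p = 0.0254), rose among 41 tested, where 1.17% of all genes passed. In males none of 39 passed by edgeR, and 3 were higher and 2 lower at an unadjusted p under 0.05 (3.34% and 2.79% of all genes).

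Some channel genes varied more between libraries of a group than between groups. Scn7a, a sodium-sensing channel known from glia, was at 2.18, 42.2, 0 and 95.2 CPM in PE+/− males, 2.63, 3.29, 48.6 and 24.2 in PE−/− males and 1.01 to 4.14 CPM in females. Male libraries with high Scn7a were also those with oxytocin transcripts of the posterior lobe, at 3.06 and 7.95 CPM in PE+/− and 19.9 and 4.72 in PE−/− males, whereas oxytocin was at 0 in the other male libraries and in every female library. The 4 posterior lobe markers summed to 21.2 to 173 CPM in PE+/− males, 30.6 to 115 in PE−/− males and 20.6 to 39.6 in females, with Rax and Nkx2-1 at the floor in females. The other 2 markers went opposite ways in females. Col25a1 had 3.83, 6.58, 17.0 and 14.4 CPM in PE+/− and 0.988, 2.44 and 0.394 in PE−/− females (edgeR adjusted p = 0.115). Slc1a3 had means of 20.6 and 28.9 CPM (edgeR adjusted p = 0.458). The part of these markers in Scn7a was not tested.

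The genes Cacnb4, Cacng6, Kcne2, Kcng4 and Scn7a (5 in all) had a library at or under 12 counts and one of at least 100 within the same group. Cacnb4, a calcium channel beta subunit, had 54.4 CPM in PE+/− male replicate 1, 55.0 in PE−/− male replicate 4 and 57.2 and 64.3 in PE+/− female replicates 1 and 4, and at most 1.62 CPM in each of the other 11 libraries. Kcnip3 had 3.93 CPM in PE−/− female replicate 2, against 104 and 105 in the other 2 of that group. Scn2b had 89.9 CPM in PE+/− male replicate 1 and 2.65 to 5.31 in the other 3. Kcne2, an auxiliary subunit, had 29.1 CPM in PE+/− female replicate 3 and 0, 1.84 and 2.07 in the other 3.

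**Figure D5:**
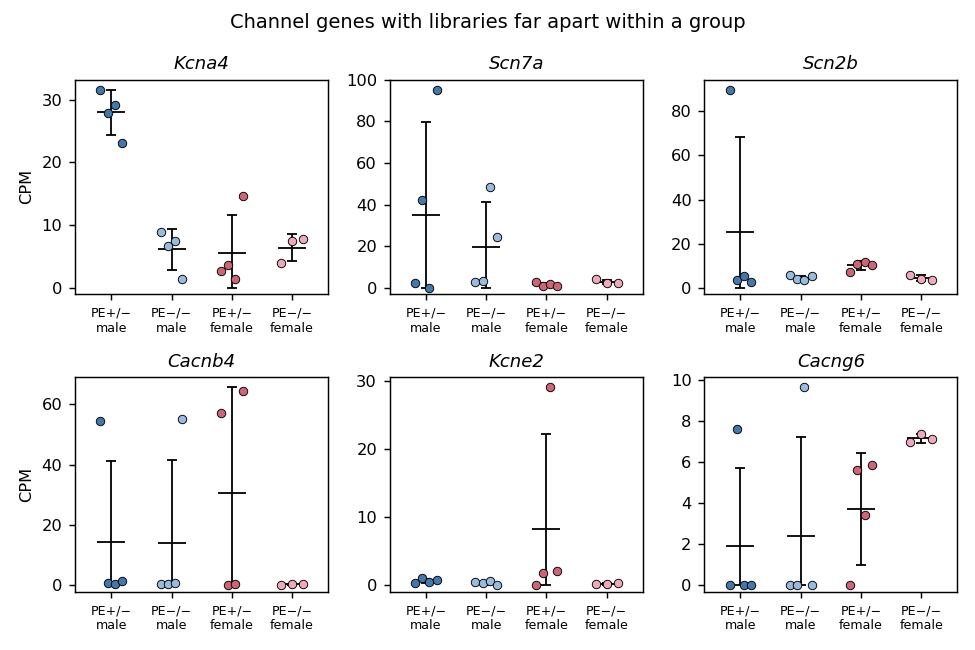
CPM in each library of Kcna4, which separates PE+/− males, and of 5 genes that vary within groups; points are libraries, bars are the mean and error bars 1 SD, drawn no lower than 0. Cacnb4 sits above 50 CPM in 4 libraries of 3 groups and near 0 in the others, and Scn2b and Kcne2 have 1 high library each.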

How the data were processed

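RNA of whole pituitary glands was made into 15 paired-end libraries. For trimming, mapping and counting, the authors name cutadapt, STAR (mm10) and featureCounts. Their deposited table holds estimated counts, whole numbers that had not been normalized. Its row names (an assembled locus for 100 channel genes, an Ensembl gene for 32) and its step of 4 counts (5, 9 and 13 were 1.52, 1.16 and 1.08 times as frequent as neighbouring values) are not described in the methods. Use of strand is not given in the sources used here. Totals ran from 12982794 to 30238443. Replicates of a group differed beyond counting noise: over 21 pairs, chi-square divided by its degrees of freedom was 21.8 to 70.3 (counts divided by 4, minimum 20).

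Genes passed filterByExpr (count minimum 10, total 15) in edgeR 4.0.16 under R 4.3.3. TMM scaling, a two-sided quasi-likelihood F test on the groups in question and Benjamini-Hochberg adjustment over every tested gene followed, with a threshold of 0.05. The SE is the log2 fold change over the square root of F. All 132 genes matched GENCODE M21. The common biological coefficient of variation was 41.3% to 47.7%. Channel genes, roles and lists were chosen with earlier results of these data known. Named genes were those past the threshold (up to 20 per comparison), the 3 with the smallest p where fewer passed, and the 2 highest per role; the others were picked after their values were seen. Alternatives were DESeq2 1.42.0, its size factors, library totals, the likelihood ratio test, other count filters, rows summed per locus, a fit on all libraries, a replicate block, leaving out each library and, added after the data had been seen, counts divided by 4. The edgeR fit was also run on simulated counts with known changes, for the comparisons within males and within females. Those simulated counts varied less between libraries than the data did.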

Additional observations from a re-analysis of the deposited data

Results flagged for a closer look

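Within groups of 4 libraries, the highest and the lowest were compared with the spread of the group by Dixon's test at 95%, which chance passes in about 1 in 20 groups. Over 37 named genes, 111 groups were looked at and 11 libraries stood apart. In PE+/− females, replicate 3 was low for Kcnh2 (34.8 CPM, next 62.4), Cacnb3 (47.4, next 83.1) and Cacng5 (1.20, next 3.36) and high for Kcnj8 (26.5, next 16.8). Replicate 4 of that group was high for Kcna4 (14.6, next 3.6) and Scn3a (63.0, next 39.3), and replicate 1 was low for Kcnk9 (5.86, next 8.91). In PE+/− males, replicate 1 was high for Scn2b (89.9, next 5.31), replicate 2 for Kcnd2 (32.9, next 27.1) and Cacna2d2 (10.8, next 6.47), and replicate 3 for Cacna1e (0.244, the others 0). The same male replicate 1 had 285 CPM of the endothelial gene Plvap, against 12.2 to 40.8 in the other 3, and the part of this in Scn2b was not tested.

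The genotype difference of Kcnip4 differed between the sexes, with an interaction of −3.08 on the log2 scale (edgeR adjusted p = 0.0347), as PE+/− females were above the other 11 libraries.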

How the results depend on the processing

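Counts of channel genes past the threshold depended most on the test. DESeq2 called 5 in males, 24 in females, 13 between the sexes in PE+/−, 5 for the interaction and 13 adjusted for sex, and the likelihood ratio test 4, 19, 11, 3 and 10, against 0, 4, 2, 1 and 5 by the quasi-likelihood test. One fit on all 15 libraries called 13 in females and 6 between the sexes in PE+/−. With the replicate number as a replicate block, 0 were called in females, 0 between the sexes in PE+/− and 2 adjusted for sex (Kcnk3 and Scn9a), and for the interaction Kcna5 in place of Kcnip4. Deviations from the group mean had correlations of −0.081 to 0.132 between samples with the same number. In females, replicate 1 had 0.132, against at most −0.0159 with other numbers. Most such pairs did not exceed every other number. Taken from means of few libraries, these correlations cannot decide whether the number pairs samples. Counts divided by 4 called 1 between the sexes in PE+/− (Kcnip4). Leaving out 1 library gave 0 to 1 in males, 0 to 4 in females, 0 to 2 between the sexes in PE+/−, 0 to 1 in PE−/−, 0 to 2 for the interaction and 1 to 7 adjusted for sex. The share of all genes called is not given beside counts from the single fit, replicate block, division by 4 or leaving out libraries. Those counts describe calls alone and are not read as a result about channel genes. The causes were not tested.

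Over 21 results for named genes and 414 alternatives, 326 kept their direction and side of the threshold, 73 were weaker, 15 stronger and 0 reversed. Kcnk3 adjusted for sex passed in each of 24 alternatives (adjusted p at most 0.0449). The 148 alternatives for mean levels moved by less than 1 SD. Library totals moved the median of all genes by at most 0.09 on the log2 scale. The number of libraries and the low counts of genes such as Cacna1e, Scn9a and Kcns2 limit the precision.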
